A study of Mus musculus with 8 samples.

Results

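The brain endothelial cells of the prefrontal cortex (PFC) were described across genes and compared between wild-type (WT) and Setd1a+/- mice. They are the cells that the authors annotated as endothelial in their PFC table, 1562 of 8997 annotated PFC cells and of 23687 annotated cells in all 8 single-cell RNA sequencing libraries of the series. Each cell's unique molecular identifier (UMI) counts were read from the matrix of its own library by barcode. The 4 PFC libraries were WT replicate 1, with 599 endothelial cells, WT replicate 2, with 285, Setd1a+/- replicate 1, with 521, and Setd1a+/- replicate 2, with 157. The mice were males of the C57BL/6N strain, aged 8 to 10 weeks per the labels, and the paper's methods give an older age. The Setd1a+/- mice carry 1 allele of the H3K4 methyltransferase gene Setd1a disrupted by CRISPR-Cas9 in exon 15, upstream of the exons (16 to 18) that encode the catalytic SET domain, and the WT mice were their littermates. The mutation is in the germline, so all cells of these mice carry it, and each library pooled the PFC of 2 mice, so that an n of 2 per genotype counts pools. Cells were freed with papain and cleaned on an OptiPrep gradient.

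Brain endothelial cells line the vessels and form the blood-brain barrier: claudin-based tight junctions seal the gaps between them, few vesicles cross them, and carriers and efflux pumps decide which molecules pass. Wnt and Norrin ligands from the brain, read through beta-catenin and Lef1, maintain this state, and VEGF and angiopoietins act on the receptors Kdr, Flt1 and Tek. Pericytes and smooth muscle cells, together called mural cells, sit on the outer side of the same vessels.

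The annotated cells were described by 4 defining genes. The authors clustered the cells on expression and named the clusters by known markers, so high shares of such genes were favoured in advance. Ly6c1, a membrane protein of vascular cells, had a UMI in 94.9 to 99.2% of the endothelial cells of a library, Slco1a4, an organic anion transporter of the blood-brain barrier, in 98.2 to 98.9%, Flt1, a VEGF receptor, in 89.8 to 96.2%, and Cldn5, the main claudin of brain vessels, in 89.1 to 96.7%. In every library these were the types' highest shares. Outside the endothelial cells the highest share was 26.1%, in the 46 microglia of Setd1a+/- replicate 1, and over the 6 types other than microglia it was at most 9.52%. Median depths were close in these groups, at 2146 UMIs per endothelial cell and 2021 per microglial cell in that library. These shares describe the annotated group and are no test of its label. Cells with more mural than endothelial marker UMIs, described further on, were included under that label.

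The endothelial cells held 1996382 and 754555 UMIs in the WT libraries and 1331209 and 414592 in the Setd1a+/- libraries, and their median depth was 2124 to 2756 UMIs per cell. Levels are given as CPM, the UMIs of a gene per 1000000 UMIs summed over the endothelial cells of 1 library. Of the 6 pairs of PFC libraries, each shared 1 to 13 cell barcodes, and 1 of those barcodes was an endothelial cell in both. The libraries differed in blood: the summed level of 5 red blood cell genes was 25809 and 4865 CPM in WT replicates 1 and 2 and 10728 and 25796 CPM in Setd1a+/- replicates 1 and 2. That level followed neither genotype nor replicate, and the genotype test was also run without those genes.

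The promoters of the 3 marker genes with a single start in RefSeq are shown because these genes mark the cells. Each window runs from 250 bases before to 50 bases after the start, 5′ to 3′ on the gene's strand, in build GRCm38.p6. Capitals mark matches, on either strand, to the core of ETS factors, AGGAAG, the motif of SOX factors, ACAATG, that of LEF and TCF factors, CTTTGA, or that of GATA-family factors, AGATAA; these motifs do not overlap in the windows shown. Flt1 is on chr5:147725962-147726261, minus strand, Slco1a4 on chr6:141856171-141856470, minus strand, and Cldn5 on chr16:18776597-18776896, plus strand.
Flt1: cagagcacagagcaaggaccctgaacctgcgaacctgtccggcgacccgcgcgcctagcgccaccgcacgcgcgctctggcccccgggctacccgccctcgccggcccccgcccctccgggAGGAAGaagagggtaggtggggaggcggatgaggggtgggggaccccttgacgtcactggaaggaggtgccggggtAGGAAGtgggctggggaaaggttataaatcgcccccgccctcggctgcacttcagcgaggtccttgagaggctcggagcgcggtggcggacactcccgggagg
Slco1a4: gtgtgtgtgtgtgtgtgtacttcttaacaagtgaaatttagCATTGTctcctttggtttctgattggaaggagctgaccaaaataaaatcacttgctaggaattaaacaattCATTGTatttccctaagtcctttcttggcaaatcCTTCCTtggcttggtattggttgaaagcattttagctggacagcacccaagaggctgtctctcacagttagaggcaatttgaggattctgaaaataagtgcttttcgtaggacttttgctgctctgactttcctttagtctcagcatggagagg
Cldn5: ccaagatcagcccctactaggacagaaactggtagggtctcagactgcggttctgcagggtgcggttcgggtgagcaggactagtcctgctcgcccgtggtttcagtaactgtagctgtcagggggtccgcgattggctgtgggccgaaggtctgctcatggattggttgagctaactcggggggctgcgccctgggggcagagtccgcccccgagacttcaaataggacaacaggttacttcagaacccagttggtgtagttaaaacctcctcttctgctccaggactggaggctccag
The Flt1 window holds 2 ETS cores, the Slco1a4 window 1 ETS core and 2 SOX matches, and the Cldn5 window none of the 4 motifs. Such matches are common: AGGAAG stood in 35.4% of all 32851 promoter windows of that length, ACAATG in 12.6%, CTTTGA in 16.0% and AGATAA in 11.2%.

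The genes of endothelial cells were ranked by their level against the other 7 PFC cell types. The enrichment of a gene is the ratio of its CPM in endothelial cells to its highest CPM in any other PFC type of the same library, with 1 CPM added to each. Of 3324 genes with at least 20 UMIs in the endothelial cells of every library, 411 were enriched at least 2-fold in all 4 libraries, 130 at least 5-fold and 8 at least 10-fold. These are descriptions without a test, since the authors clustered the cells on the same genes.

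Genes were ranked by the lowest of their 4 library enrichments, so a gene outside the first 20 can be more enriched in a single library. First by this measure was Slc52a3, a riboflavin transporter, at 61.6 and 59.6 CPM in the WT libraries and 78.1 and 82.0 CPM in the Setd1a+/- libraries against at most 3.31 CPM in another type. Car5a, a mitochondrial carbonic anhydrase, stood at 112 and 101 CPM in the WT libraries and 128 and 174 CPM in the Setd1a+/- libraries. Both were at least 13.6 times as high as the next type in every library. Regulators of vessel tone were represented by Nostrin, which binds the endothelial nitric oxide synthase, at 196 to 412 CPM, and by Edn3, the peptide endothelin 3, at 130 to 193 CPM. The interferon-induced gene Gbp4 was at 62.7 to 80.4 CPM and Irf7, a transcription factor of the same response, at 94.1 to 107 CPM. Among genes of vessel identity, the transcription factor Gata2 was at 82.0 to 125 CPM and Gja4, a gap junction protein of arteries, at 67.5 to 106 CPM. Caveola proteins followed, with Cavin2 at 554 to 641 CPM and Ehd2 at 46.6 to 111 CPM. Egfl7, a secreted vascular protein, had 1208 to 1661 CPM, and its next type had 52.2 to 173 CPM. The other 9 of the first 20 genes were Akr1c14, Rasd1, 8430408G22Rik, Fosb, Podxl, Atp10a, Heg1, Cyyr1 and Ltbp4. Over the 20 genes the lowest enrichment in any library was 8.74 to 18.3. For the first 100 genes the next type was microglia in 61 and 81 genes of the WT libraries and in 72 and 44 of the Setd1a+/- libraries. The value in microglia therefore entered many of these ratios, and it rested on few counts. The microglia summed to 564047 and 184891 UMIs in the WT libraries and 98736 and 205011 UMIs in the Setd1a+/- libraries. For genes such as Gata2 and Gja4, at 10.1 CPM in microglia of Setd1a+/- replicate 1, the lowest ratio thus lay near the counting floor.

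**Figure D1:**
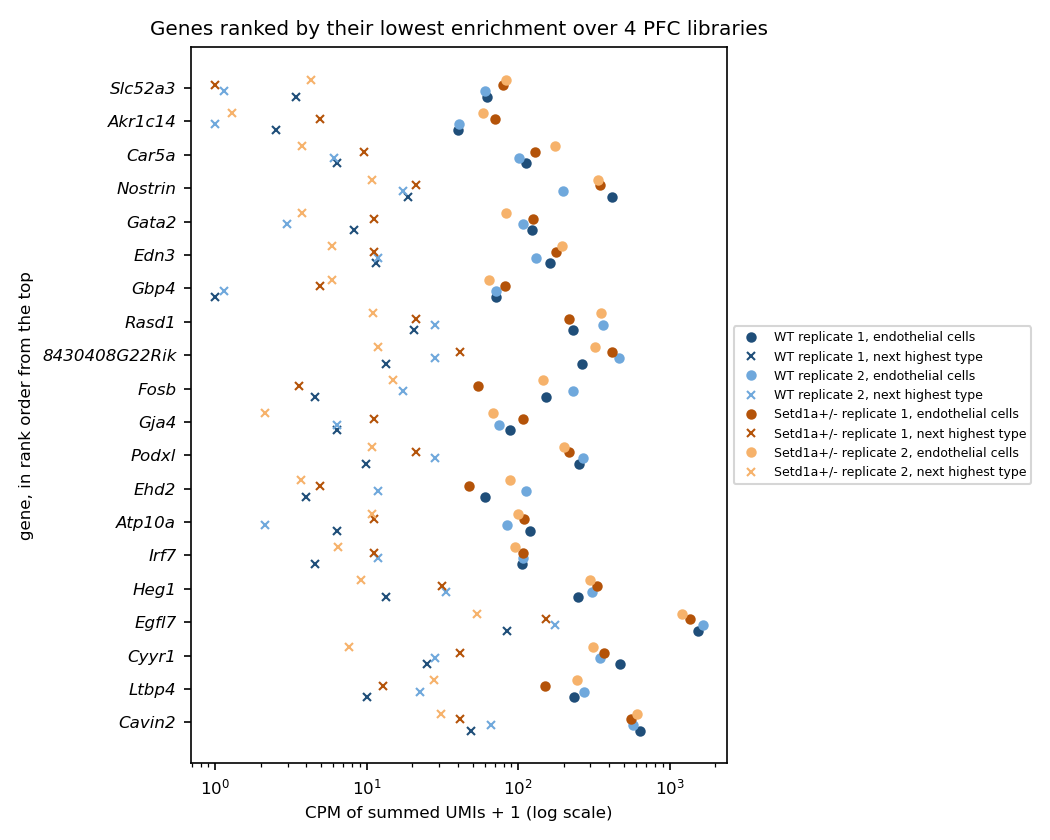
CPM of summed UMIs plus 1 on a log axis, for the 20 genes ranked highest by the lowest of their enrichments over the 4 libraries, by library (colour); dots are endothelial cells and crosses the highest other PFC type of the same library. For each of the 20 genes all 4 dots lie to the right of all 4 crosses.

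Genes of the barrier differed in how far they set endothelial cells apart. Among 15 genes of junctions and low transcytosis, 12 passed the 20 UMI minimum and 7 of these were enriched at least 2-fold in all 4 libraries. Cldn5 was at 1914 and 2169 CPM in the WT libraries and 1278 and 1602 CPM in the Setd1a+/- libraries, Cdh5, the cadherin of endothelial contacts, at 374 to 467 CPM, and Cgnl1, a junction scaffold, at 198 to 310 CPM. In contrast, Jam2 was only 1.12 to 1.79 times, and Cav1, a caveola coat protein, 1.70 to 2.04 times the level of the next type. Mfsd2a, a lipid transporter that limits vesicle traffic, was at 130 to 263 CPM and below the next type in every library (0.502 to 0.898 times).

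Of 9 efflux transporters 8 passed the minimum and 5 were enriched at least 2-fold. The pumps Abcb1a (622 to 1048 CPM) and Abcg2 (840 to 1153 CPM) and the organic anion carrier Slc22a8 (385 to 432 CPM) were at least 4.99 times as high as in any other type. Slco1c1, the thyroid hormone transporter, was 1.68 to 2.17 times as high, with astrocytes at 312 to 533 CPM. Slco2b1 was lower in endothelial cells, at 70.2 to 101 CPM against 124 to 263 CPM in microglia. Of 19 nutrient carriers 16 passed and 12 were enriched. Slc2a1, the glucose transporter of the barrier, was at 1269 and 1014 CPM in the WT libraries and 1959 and 1438 CPM in the Setd1a+/- libraries. Slc6a6, the taurine carrier, was at 1044 to 1456 CPM, Slc7a1, a cationic amino acid carrier, at 449 to 490 CPM, and Slc40a1, the iron exporter, at 460 to 531 CPM. Slc39a10 and Slc3a2 were broad, at 1.13 to 2.18 and 1.12 to 1.64 times the next type. Carriers for glucose, taurine and cationic amino acids were thus highest in endothelial cells, and the heavy chain Slc3a2 was near the astrocyte level.

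Of 22 genes of VEGF and Tie signaling 10 passed the minimum and 7 were enriched at least 2-fold, among them Flt1 (1594 to 2444 CPM), Kdr (340 to 447 CPM), Tek (296 to 367 CPM) and Ptprb, a phosphatase that opposes Tek (832 to 1159 CPM). Of 17 genes of Wnt and Norrin signaling 12 passed and 8 were enriched, with Lef1 at 622 and 498 CPM in the WT libraries and 322 and 451 CPM in the Setd1a+/- libraries, and the Norrin receptor Fzd4 at 68.1 and 74.2 CPM in the WT libraries and 98.4 and 98.9 CPM in the Setd1a+/- libraries. Of 28 endothelial transcription factors 20 passed and 14 were enriched. Klf2, induced by flow, was at 397 to 566 CPM, Klf4 at 675 to 841 CPM and Epas1, a hypoxia-inducible factor, at 762 to 1094 CPM.

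Immediate early genes were abundant. Of 38 genes of the immediate early and acute response 28 passed and 18 were enriched at least 2-fold over the other types. The 36 members found in the data summed to 21543 and 19417 CPM in the WT libraries and 21474 and 15068 CPM in the Setd1a+/- libraries. Fos alone was at 5375 and 4474 CPM in the WT libraries and 4982 and 3015 CPM in the Setd1a+/- libraries, at least 7.22 times the next type. Tissue digestion at warm temperature is known to induce such genes, and its part in these levels was not tested. Interferon and antigen presentation genes were mixed: 31 of 38 passed and 11 were enriched, with Ifitm3 at 1058 to 1617 CPM and at least 5.47 times the next type, whereas B2m, at 1282 to 1820 CPM, was highest in microglia. The matrix genes Sparc and Sparcl1 were higher in microglia and in astrocytes, respectively, and Fn1, fibronectin, was endothelial, at 730 to 861 CPM and at least 7.90 times the next type.

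The annotated group also held cells with more UMIs of mural than of endothelial genes. A cell was called mural-dominant where its UMIs of 17 pericyte and smooth muscle genes numbered at least 3 and exceeded those of 16 endothelial genes. Mural-dominant cells made up 7.18% of the endothelial cells in WT replicate 1 and 12.3% in WT replicate 2, and 4.80% in Setd1a+/- replicate 1 and 17.8% in Setd1a+/- replicate 2. The replicate 2 libraries had the higher share in each genotype, and the genotypes overlapped (difference of the means 1.59 percentage points, two-sided exact permutation test over libraries, p = 1.0, the smallest possible p being 0.333). Only 2 cells, both in WT replicate 2, were fibroblast-dominant, and 0 were macrophage-dominant. Between 4 and 15 cells of a library lay within 2 UMIs of the cut.

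A UMI of a mural gene was found in 84.3 to 87.7% of all endothelial cells of a library (median depth 2124 to 2756 UMIs), and in 4.05 to 50.7% of the cells of each other PFC type, the highest shares in oligodendrocyte progenitor cells (median depth 1403 to 1919 UMIs). With each cell thinned to 1000 UMIs, which left out no cell, the shares were 73.3 to 80.7% in endothelial cells and 1.63 to 31.1% in the other types. In oligodendrocyte progenitor cells, unthinned, Rgs5 was found in 2.96 and 1.34% and Vtn in 2.07 and 4.25% of cells in WT replicates 1 and 2. The mural genes include Cspg4, whose part in the share of the progenitor cells was not tested. The mural-dominant cells themselves carried a median of 27.5 to 39 UMIs of endothelial genes, beside 39 to 55 of mural genes. Whether they were mural cells or droplets that held both cell types was not tested. The pericyte genes Rgs5 and Vtn were at 2501 to 3004 and 1532 to 1848 CPM over the whole group. The 7 smooth muscle genes summed to 719 to 892 CPM, most of it from Myl9, a myosin light chain, at 483 and 584 CPM in the WT libraries and 503 and 598 CPM in the Setd1a+/- libraries. Mylk, a myosin light chain kinase, was at 140 to 163 CPM and Acta2, smooth muscle actin, at 28.5 to 51.7 CPM. Cnn1 was at 0 in every library, where a count of 0 allows up to 3 UMIs. Over the UMIs of all 4 libraries together, genes that set mural-dominant cells apart and were not used to assign them included Cox4i2, a subunit of cytochrome oxidase (301 against 48.7 CPM), Casq2, a calcium store protein (258 against 55.0 CPM), and Gucy1b1, a subunit of the nitric oxide receptor (611 against 148 CPM). C1qa and C1qc, complement genes of microglia, were also among them. Their 50 and 40 UMIs each came from 8 of the 131 mural-dominant cells, with up to 20 and 10 UMIs in a single cell, so these levels do not describe the mural-dominant cells as a whole.

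Each endothelial-dominant cell was given the list, arterial, capillary or venous, with the most UMIs in it (at least 2). Capillary genes led in 80.4 to 87.9% of the cells of a library and venous genes in 0.899 to 3.1%. The lists differ in abundance: over all endothelial cells they summed to 2986 to 3693 CPM (capillary), 688 to 1293 CPM (arterial) and 554 to 1001 CPM (venous). This favours a capillary lead, so the shares are not those of vessel segments. Arterial genes led in 6.65% (37 of 556 cells) in WT replicate 1 and 8.87% (22 of 248) in WT replicate 2, and in 13.7% (68 of 496) in Setd1a+/- replicate 1 and 14.0% (18 of 129) in Setd1a+/- replicate 2. Both Setd1a+/- libraries lay above both WT libraries, by 6.07 percentage points between the means, with an exact permutation p of 0.333, the smallest that 2 against 2 libraries can give. The comparison was chosen after the values were seen. It rested on Mgp and Gkn3: without these genes the shares were 2.34 and 3.23% in WT and 3.83 and 3.88% in Setd1a+/- libraries, a difference of 1.07 points. With each cell thinned to 1000 UMIs the difference was 4.13 points.

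Endothelial cells made up 22.8% (95% Wilson interval 21.3 to 24.5%) of the annotated cells in WT replicate 1 and 10.6% (9.52 to 11.9%) in WT replicate 2, and 23.8% (22.1 to 25.7%) in Setd1a+/- replicate 1 and 10.4% (8.97 to 12.1%) in Setd1a+/- replicate 2. The share followed the replicate and not the genotype, whose means differed by 0.387 percentage points (exact permutation p = 1.0). These intervals cover counting error alone. Without WT replicate 2 the difference was -5.71 points and without WT replicate 1 it was 6.49 points, opposite signs. Each of these leaves the replicates unevenly mixed, so the swing reflects the replicates.

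**Figure D2:**
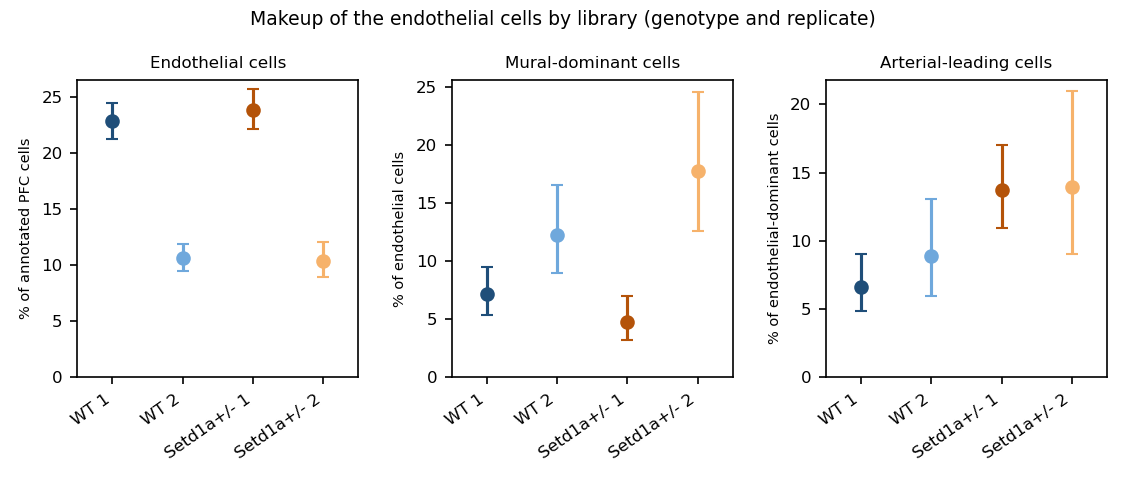
Shares in percent by library, from left to right the endothelial share of annotated PFC cells, the mural-dominant share of the endothelial cells and the arterial-leading share of the endothelial-dominant cells; bars are 95% Wilson intervals. The first and second panels separate the replicates, and in the third the Setd1a+/- libraries sit at 13.7 and 14.0% against 6.65 and 8.87% in WT.

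The genotypes were compared on UMIs summed over the endothelial cells of each library. Setd1a itself (chr7:127776670-127800122, plus strand, GRCm38) was at 8.52 and 13.3 CPM in the WT libraries and 6.76 and 14.5 CPM in the Setd1a+/- libraries, from 17, 10, 9 and 6 UMIs. The groups overlapped and a difference was not detectable at this depth (log2 fold change -0.11 ± 0.67 SE, n = 2 libraries per genotype, edgeR quasi-likelihood FDR 0.999). UMIs from the disrupted allele would be counted too, so these counts do not check the mutation. In the striatal endothelial cells the log2 fold change of Setd1a was -0.83 ± 0.42 (SE).

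No gene passed a false discovery rate (FDR) below 0.05 with a fold change above 1.5 in the edgeR test of genotype alone: 0 of 8777 genes were called (0.0%), and DESeq2 called 0 as well. At an unadjusted p below 0.05 edgeR had 63 genes higher in Setd1a+/- mice (0.718%) and 91 lower (1.04%), 154 in all (1.75%), and DESeq2 had 23 (0.262%). By size of change, replicates differed more than genotypes: for 48 genes each replicate 1 library was at least 4-fold below each replicate 2 library, for 13 genes at least 4-fold above, while 0 genes were at least 4-fold apart between the genotypes. The methods state that each biological replicate gave 1 library of each genotype, and with the replicate as a block, which leaves 1 residual degree of freedom, 16 genes were called (0.182%), 7 higher (0.0798%) and 9 lower (0.103%), and 545 had an unadjusted p below 0.05 (6.21%). Without Setd1a+/- replicate 2, the library with the fewest cells, 42 genes were called without the block. The genes below are therefore described by their values, and none of them passed the test of genotype alone. On simulated counts that test recovered 0.52% of 2-fold changes, so a lack of calls does not show a lack of such changes.

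Among genes higher in Setd1a+/- mice, Kcne4, a regulatory subunit of potassium channels (chr1:78816758-78820028), had the smallest p of the genes with at least 20 UMIs in every library. It was at 34.1 and 29.2 CPM in the WT libraries and 146 and 74.8 CPM in the Setd1a+/- libraries, a log2 fold change of 1.87 ± 0.34 (SE; edgeR FDR 0.999, and FDR 3.75e-06 with the replicate block). Both Setd1a+/- libraries lay above both WT libraries. Tsc22d3, a glucocorticoid-induced transcriptional regulator, was at 1244 and 1405 CPM in the WT libraries and 2284 and 2656 CPM in the Setd1a+/- libraries (log2 fold change 0.95 ± 0.25, edgeR FDR 0.00651 with the block). Ptprr, a phosphatase that acts on MAP kinases, was at 216 and 216 CPM in the WT libraries and 357 and 412 CPM in the Setd1a+/- libraries (0.87 ± 0.23, edgeR FDR 0.0254 with the block). For both genes the WT libraries were nearly equal and the Setd1a+/- libraries did not overlap them.

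The arterial genes Mgp and Gkn3 were also higher. Mgp, matrix Gla protein (chr6:136872435-136875823), was at 235 and 227 CPM in the WT libraries and 394 and 704 CPM in the Setd1a+/- libraries (log2 fold change 1.30 ± 0.32, edgeR FDR 0.000124 with the block), and its log2 fold change was 0.78 without Setd1a+/- replicate 2. Gkn3 (chr6:87383256-87388935) was at 132 and 162 CPM in the WT libraries and 234 and 280 CPM in the Setd1a+/- libraries (0.85 ± 0.25, edgeR FDR 0.031 with the block). These genes moved with the share of arterial-leading cells above, which they helped to define, and in summed counts more arterial cells and more RNA per cell cannot be told apart. Of the other 7 arterial genes 3 had a positive and 4 a negative log2 fold change. Bmx, a kinase of arterial endothelium, was at 40.6 and 47.7 CPM in the WT libraries and 23.3 and 31.4 CPM in the Setd1a+/- libraries, and Sema3g at 46.1 and 68.9 against 38.3 and 38.6 CPM. The 9 arterial genes had a median log2 fold change of 0.01.

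Ciart, a circadian repressor, was at 69.6 and 31.8 CPM in the WT libraries and 130 and 89.2 CPM in the Setd1a+/- libraries (log2 fold change 1.12 ± 0.37, edgeR FDR 0.0254 with the block), with 1.84 without WT replicate 1 and 0.72 without WT replicate 2. Aldh1a1, which makes retinoic acid, was at 19.0 and 15.9 CPM in the WT libraries and 55.6 and 36.2 CPM in the Setd1a+/- libraries, from 12 to 74 UMIs (1.45 ± 0.33, edgeR FDR 0.0258 with the block). Spry1, an inhibitor of growth factor signaling, and Slc2a1, the glucose transporter, were higher in both Setd1a+/- libraries too (log2 fold changes of 0.86 ± 0.25 and 0.61 ± 0.26) and were not called with the block (edgeR FDR 0.264 and 0.32). Lhfp, Crlf3, Akr1c14 and Fam107a, also among the 12 genes of smallest p in this direction, had log2 fold changes of 0.73 to 0.80.

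Among genes lower in Setd1a+/- mice, with the same minimum, the smallest p was that of Nfe2l1, a transcription factor for proteasome genes, at 147 and 137 CPM in the WT libraries and 72.1 and 72.4 CPM in the Setd1a+/- libraries (log2 fold change -0.94 ± 0.25, edgeR FDR 0.0618 with the block). Chd2, a chromatin remodeler, was at 111 and 119 CPM in the WT libraries and 54.1 and 67.5 CPM in the Setd1a+/- libraries (-0.91 ± 0.27, edgeR FDR 0.138 with the block). In both genes the libraries of each genotype lay close together and the genotypes did not overlap. The immediate early factor Jun was at 1149 and 1107 CPM in the WT libraries and 687 and 781 CPM in the Setd1a+/- libraries (-0.57 ± 0.24, edgeR FDR 0.386 with the block). Lamc1 (97.2 and 115 against 46.6 and 69.9 CPM) and Lama4 (67.6 and 82.2 against 42.8 and 50.7 CPM), laminins of the basement membrane, had log2 fold changes of -0.87 ± 0.31 and -0.66 ± 0.28 (edgeR FDR 0.200 and 0.743 with the block), and the Lamc1 value was -0.50 without Setd1a+/- replicate 1. None of these 5 genes was called with the block. Other laminins did not share this direction: Lama5 was at 27.5 and 21.2 against 32.3 and 36.2 CPM, and the genotypes overlapped in Lamb1 (19.0 and 10.6 against 18.0 and 7.24 CPM) and Lamb2 (129 and 102 against 102 and 142 CPM). Zcchc7, Nhsl1, Map4 and Ktn1, also among the 12 genes of smallest p in this direction, had log2 fold changes of -0.73 to -0.68. Without WT replicate 1 the value was -0.38 for Map4, and without Setd1a+/- replicate 1 it was -0.40 for Ktn1.

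Of the 9 genes lower and called with the block, several also mark other cells or technical classes of RNA. Aldoc, an aldolase of astrocytes, was at 95.2 and 74.2 CPM in the WT libraries and 45.1 and 26.5 CPM in the Setd1a+/- libraries (log2 fold change -1.14 ± 0.30, edgeR FDR 0.0424 with the block). The metallothionein Mt2 was at 268 and 127 against 54.8 and 118 CPM (-1.23 ± 0.47, FDR 0.00651 in edgeR with the block) and Mt1 at 797 and 587 against 225 and 514 CPM (-0.86 ± 0.40, FDR 0.0287). The fall within replicate 1 was the greater, with log2 ratios of -2.27 and -0.11 for Mt2 and -1.82 and -0.19 for Mt1 in replicates 1 and 2. Without WT replicate 1, Setd1a+/- replicate 1 or Setd1a+/- replicate 2 the log2 fold change of Mt2 was -0.57, -0.67 and -1.87, and without either Setd1a+/- library that of Mt1 was -0.34 and -1.62. The summed level of 5 astrocyte markers, Aldoc itself among them, was 500.4 and 420 CPM in the WT libraries and 285 and 294 CPM in the Setd1a+/- libraries. All 4 members tested, Aldoc included, had negative log2 fold changes. At least 3 astrocyte UMIs were found in 18.2 and 13.3% of the endothelial cells in WT against 8.06 and 7.64% in Setd1a+/- libraries. Mt1 and Mt2 did not follow that sum, which was nearly level between the Setd1a+/- libraries where theirs were not. Clu and Cpe, both abundant in astrocytes, were among the 12 genes of smallest p in this direction, with log2 fold changes of -0.93 ± 0.34 and -0.79 ± 0.32. Clu was at 85.7 and 71.6 CPM in the WT libraries and 30.8 and 55.5 CPM in the Setd1a+/- libraries, and its log2 fold change was -0.42 without Setd1a+/- replicate 1. Cpe was at 186 and 151 against 124 and 60.3 CPM, with -0.45 without Setd1a+/- replicate 2 and -1.39 without Setd1a+/- replicate 1. The part of astrocyte RNA in these values was not tested.

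Erg, an ETS factor of endothelial identity, was at 42.1 and 10.6 CPM in the WT libraries and 10.5 and 2.41 CPM in the Setd1a+/- libraries (log2 fold change -1.79 ± 0.71, edgeR FDR 0.0287 with the block). The WT replicate 2 value rested on 8 UMIs, the Setd1a+/- replicate 2 value on 1 UMI (log2 fold change -3.44 without Setd1a+/- replicate 1), and WT replicate 2 and Setd1a+/- replicate 1 were almost level. Fosb was lower within each replicate, at 152 against 53.3 CPM and 229 against 145 CPM. Both Setd1a+/- values lay below both WT values in CPM, but the genotypes overlapped once CPM were scaled by TMM factors, and the log2 fold change of -0.96 was -0.63 without WT replicate 2, -0.29 without Setd1a+/- replicate 1 and -1.82 without Setd1a+/- replicate 2. Hist1h1e, a linker histone, was at 164 and 45.1 against 16.5 and 24.1 CPM, and mt-Atp8, whose gene overlaps mt-Atp6, at 179 and 71.6 against 17.3 and 38.6 CPM. Gm42418, a gene model known to catch ribosomal RNA reads, was at 1608 and 425 against 69.1 and 309 CPM, and Wfdc17 at 4.51 and 354 against 3.00 and 36.2 CPM, from 9 and 267 against 4 and 15 UMIs. Over the libraries together Wfdc17 was higher in mural-dominant cells (385 against 41.1 CPM). Most of its UMIs came from WT replicate 2, so that level does not describe those cells as a whole. For the last 4 genes the size of the difference depended on a single WT library, least so for mt-Atp8. Without WT replicate 1 the log2 fold change moved from -2.46 to -1.19 for Hist1h1e, from -2.32 to -1.47 for mt-Atp8 and from -2.42 to -1.16 for Gm42418, and without WT replicate 2 from -3.61 to 1.87 for Wfdc17. Gm42418 was at -3.88 without Setd1a+/- replicate 2, and Wfdc17 at -2.14 and -5.78 without either Setd1a+/- library. In all, leaving out 1 library moved the log2 fold change of 10 of the 16 genes called with the block by over 1.5 times.

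**Figure D3:**
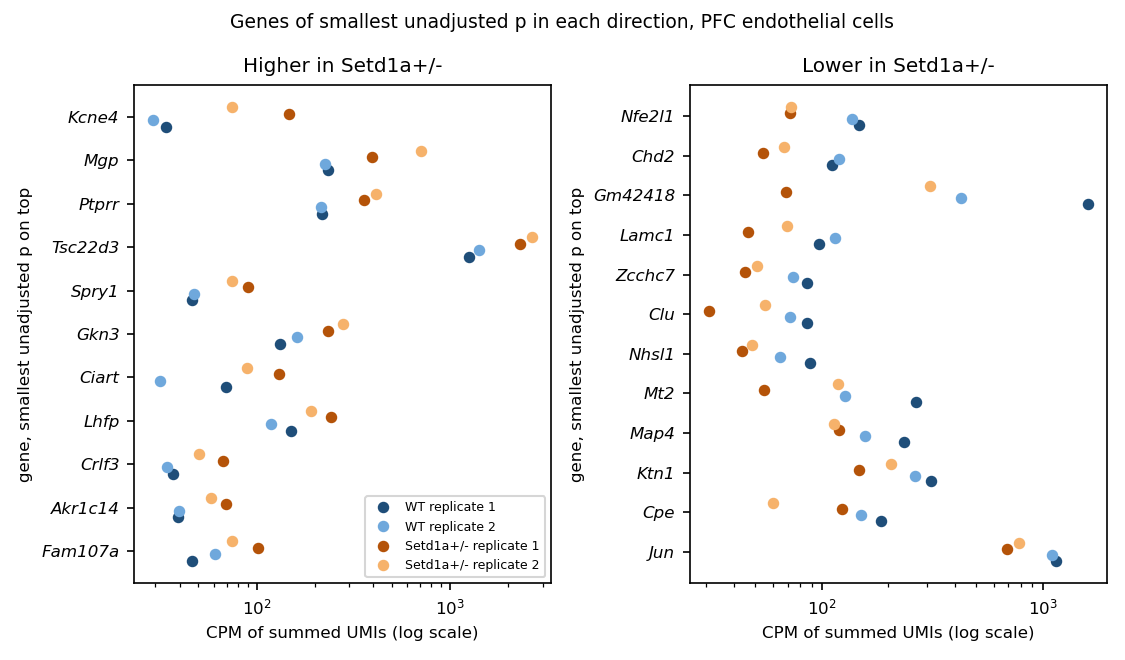
CPM of summed UMIs on a log axis for 11 higher and 12 lower genes among the 12 of smallest unadjusted p in each direction, with at least 20 UMIs in every library, by library (colour). In each of the 23 genes the 2 blue (WT) and 2 orange (Setd1a+/-) points do not overlap, as the choice of genes with small p favours.

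Gene lists of the barrier, signaling and other cell types were compared next. Over 34 lists 0 members were called by the test of genotype alone, and the median log2 fold change of the lists with at least 4 members tested lay between -0.56, for astrocyte markers, and 0.28, for red blood cell genes, beside -0.0036 for all 8777 genes. For red blood cell genes the within-replicate medians were -1.50 and 2.35, on opposite sides of 0. The 16 core endothelial genes had a median of -0.08, the 13 junction genes tested -0.12, the 8 efflux transporters 0.01 and the 19 nutrient carriers -0.07. Cldn5 was below WT in both Setd1a+/- libraries, with a log2 fold change of -0.45 ± 0.26 (edgeR FDR 0.694 with the block; -0.26 without Setd1a+/- replicate 1), and Cgnl1 likewise (-0.49 ± 0.23). Ly6c1, Slco1a4 and Flt1 overlapped between the genotypes, with log2 fold changes of 0.05 ± 0.24, 0.05 ± 0.27 and -0.15 ± 0.26.

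Counts of members whose libraries did not overlap were taken on CPM scaled by TMM factors, which correct for RNA composition, so that a near tie in CPM can fall the other way. They are read against the share among all genes, 14.5% with both Setd1a+/- libraries higher and 13.6% with both lower. Of 28 endothelial transcription factors 0 were higher and 7 were lower without overlap, among them Erg, Lef1 (log2 fold change -0.49 ± 0.27) and Fli1, and 21 of 28 had a negative value. The value of Lef1 was -0.22 without Setd1a+/- replicate 1 and -0.80 without Setd1a+/- replicate 2. Of 17 genes of nitric oxide and vasoactive signaling tested, 1 was higher and 7 were lower. Chosen after their values were seen, Edn1, the constrictor peptide endothelin 1, was at 317 and 315 CPM in the WT libraries and 228 and 210 CPM in the Setd1a+/- libraries, and Nos3, the endothelial nitric oxide synthase, at 103 and 110 against 75.9 and 69.9 CPM. Npr1, the receptor for natriuretic peptide, was at 18.5 and 21.2 against 10.5 and 9.65 CPM. Their log2 fold changes were -0.48 ± 0.22, -0.49 ± 0.25 and -0.91 ± 0.43, with 0 of the 17 genes at an unadjusted p below 0.05. In Wnt and Norrin signaling 3 members were higher and 3 lower without overlap: the Norrin receptor parts Fzd4 and Tspan12 were higher (log2 fold changes 0.52 ± 0.25 and 0.47 ± 0.24), while Lef1 was lower.

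Of 21 apoptosis genes tested, 6 were higher and 2 lower without overlap, and Bax, which permeabilizes mitochondria, was at 152 and 142 CPM in the WT libraries and 204 and 251 CPM in the Setd1a+/- libraries (log2 fold change 0.67 ± 0.24, edgeR FDR 0.345 with the block). Of 38 interferon and antigen presentation genes 6 were higher and 4 lower. Of 17 H3K4 methyltransferases and COMPASS subunits, the family of Setd1a, 1 was higher and 2 were lower: Hcfc1, a shared subunit, was at 51.6 and 43.7 CPM in the WT libraries and 26.3 and 26.5 CPM in the Setd1a+/- libraries (-0.83 ± 0.29, edgeR FDR 0.500 with the block), and Kmt2a, a related methyltransferase, at 82.1 and 82.2 against 56.3 and 57.9 CPM (-0.49 ± 0.25). Of 14 genes that the main text of the study names for endothelial cells, 13 were tested, all 13 had negative log2 fold changes with a median of -0.38, and 4 were lower without overlap. The study chose this list on these samples, so its direction is not independent evidence. Jun and Stag1, a cohesin subunit (145 and 103 against 72.1 and 82.0 CPM), had an unadjusted p below 0.05, and the median ratio was -0.71 within replicate 1 and -0.07 within replicate 2. Pecam1, an adhesion molecule of endothelial contacts from that list, was at 518 and 415 against 327 and 417 CPM. Fer, a tyrosine kinase that the study's supplement names for these cells and the 14 leave out, was at 51.1 and 21.2 CPM in the WT libraries and 21.0 and 36.2 CPM in the Setd1a+/- libraries (log2 fold change -0.48 ± 0.48, edgeR FDR 0.999), and the genotypes overlapped.

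**Figure D4:**
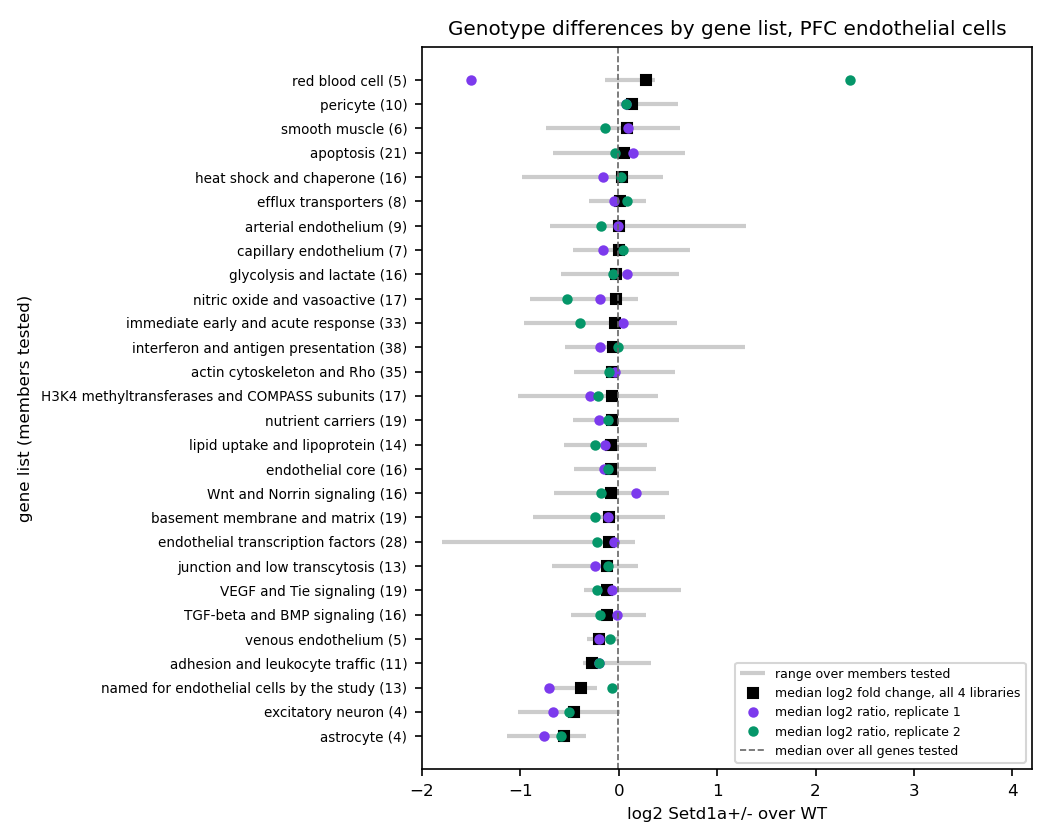
Log2 ratio of Setd1a+/- over WT by gene list (members tested in brackets, lists with at least 4): squares are medians over the fit of all 4 libraries, coloured dots medians within replicate 1 and replicate 2, grey bars the range over members, and the dashed line the median of all genes tested. Most squares lie between -0.2 and 0.2, and for red blood cell genes the replicates lie on opposite sides of 0.

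Whether the genotype effect in endothelial cells differed from that in other cells was tested with a term for cell type and genotype, with the library as a block. Against 2775 PFC excitatory neurons 3 of 12834 genes were called (0.0234%), and against 1694 PFC oligodendrocytes 2 of 9013 (0.0222%). At an unadjusted p below 0.05 there were 370 (2.88%) and 296 (3.28%). With a library left out these counts were 8 and 16 without WT replicate 1, 17 and 8 without WT replicate 2, 4 and 2 without Setd1a+/- replicate 1, and 4 and 0 without Setd1a+/- replicate 2. In the oligodendrocyte comparison, Nfkbia, the inhibitor of NF-kappaB, was at 1307 and 1161 CPM in WT endothelial cells against 1359 and 1339 CPM in Setd1a+/- endothelial cells, and at 41.7 and 44.3 against 113 and 179 CPM in oligodendrocytes, so that the endothelial level was even and the oligodendrocyte level was not. Meg3, a neuronal noncoding RNA, was at 140 and 205 against 191 and 205 CPM in endothelial cells and 177 and 336 against 103 and 127 CPM in oligodendrocytes. The genes called against excitatory neurons were Wfdc17, Hbb-bt and Mt1, and all 3 had a gap of at least 2-fold between endothelial libraries of a single genotype. On simulated counts this test recovered 1.04% of 2-fold and 10.6% of 4-fold changes, with 10 and 3 false calls. Calls as few as these can therefore be false.

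The 1998 striatal endothelial cells gave a separate set of 4 libraries. Between PFC and striatal endothelial cells 0 of 10652 genes differed in the genotype effect (0.0%; 221 genes, or 2.07%, at an unadjusted p below 0.05 in edgeR), and in striatal endothelial cells alone 0 of 10358 genes were called (229, or 2.21%, at an unadjusted p below 0.05). Side by side, the log2 fold change of Kcne4 was 1.87 in PFC and 0.47 in striatum, that of Mgp 1.30 and 0.45, that of Tsc22d3 0.95 and 0.39, that of Ptprr 0.87 and 0.24 and that of Ciart 1.12 and 0.70. For Gkn3 the values were 0.85 and 0.05, for Nfe2l1 -0.94 and -0.09, for Jun -0.57 and 0.10 and for Cldn5 -0.45 and -0.46. None of these differences between tissues passed the threshold.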

How the data were processed

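Single cells of PFC and striatum (named NAc in the labels, dorsal and ventral striatum in the paper) of WT and Setd1a+/- mice were sequenced in 8 libraries on the 10x Genomics platform, and 4 PFC libraries are described. The authors made the deposited matrices of raw UMI counts with Cell Ranger 3.0.2 on mm10, per the submitters' processing notes, for all barcodes. They removed cells below 800 genes or above 10% mitochondrial content, integrated the libraries in Seurat 3.2.0 and named merged clusters. These names are used here, and how the authors treated doublets is not given in the sources used here. No doublet caller was run. The authors tested single cells with DEsingle, while here the counts were summed per library, because cells are not replicates.

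Sums were tested with edgeR 4.0.16 (glmQLFit and glmQLFTest, TMM, the filterByExpr count minimum set to 10, FDR by Benjamini-Hochberg below 0.05 and fold change above 1.5), and DESeq2 1.42.0 was an alternative, as were other scalings, filters and cell sets. Total UMIs of the endothelial sums were 414592 to 1996382 per library, and all 8997 annotated PFC barcodes were found. The replicate block was used as an alternative because the methods pair 1 WT and 1 mutant library in each biological replicate; the differences between replicates correlated across 8777 genes between the genotypes (r = 0.39). P-values of the test of genotype alone measure the spread between pools of 2 mice, the difference between replicates included. Those with the block measure the spread left after that difference. Shares were compared with two-sided exact permutation tests in scipy 1.17.1, which did not use the pairing of libraries, with 95% Wilson intervals that cover counting error only. The scripts were tested on simulated counts. The test of genotype alone recovered 0.52% of 192 genes changed 2-fold and 77.7% of 179 genes changed 4-fold, with 2 and 10 false calls. The test of a differing genotype effect recovered 1.04% and 10.6%, with 10 and 3 false calls. Genes were named by rule: Setd1a and the 4 markers, the 20 genes of highest minimum enrichment over the libraries, the 12 of smallest p in each direction with at least 20 UMIs in every library, genes called with the block, genes of lists with an unadjusted p below 0.05 or the most UMIs, the 14 genes the study's main text names for endothelial cells and Fer from its supplement, and genes with a differing genotype effect. A result under this rule is not reported here. Bmx, Cav1, Cgnl1, Cnn1, Edn1, Fli1, Fzd4, Gucy1b1, Jam2, Lama5, Lamb1, Lamb2, Nos3, Npr1, Sema3g, Slc22a8, Slc40a1, Slc7a1, Slco2b1, Cox4i2, Casq2 and C1qc fall outside this rule and were chosen after their values were seen. The members and lists were chosen with earlier results of these data known. Promoter windows come from RefSeq (GRCm38.p6); 74 of the 100 most enriched genes had a window, under 80%, so a count of motifs over that set was void. Gene coordinates come from GENCODE vM21.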

Additional observations from a re-analysis of the deposited data

Results flagged for a closer look

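The genotype effect of 5 genes was called as differing between PFC endothelial cells and another PFC type in edgeR, given as the difference of the log2 fold changes, endothelial minus other. On simulated counts the same test made 10 and 3 false calls, with 2-fold and 4-fold changes, so calls this few can be false. Against excitatory neurons it was -4.50 for Wfdc17 (SE 0.57, FDR 1.9e-11), -2.41 for Hbb-bt (SE 0.30, FDR 1.9e-11) and -0.88 for Mt1 (SE 0.20, FDR 0.0485). Wfdc17 was at 4.51 and 354 CPM in WT endothelial cells against 3.00 and 36.2 CPM in Setd1a+/- endothelial cells, and Hbb-bt, a hemoglobin gene, at 2183 and 370 against 802 and 1746 CPM. The fit has 2 residual degrees of freedom for each gene, and over its alternatives the difference ran from -6.26 to -0.54 for Wfdc17, from -3.94 to 1.40 for Hbb-bt and from -1.42 to -0.26 for Mt1. Mt1 was called in 1 of 6 alternatives, without WT replicate 2, with an FDR of 7.21e-07 to 1 over them. Wfdc17 and Hbb-bt were each called in 4 of 5, the former lost without WT replicate 2 (-0.54) and the latter without Setd1a+/- replicate 1 (1.40). Against oligodendrocytes it was -1.63 for Nfkbia (SE 0.25, FDR 0.00217), with -1.88 to -1.29 over the alternatives, and 1.29 for Meg3 (SE 0.21, FDR 0.00383), with 1.14 to 1.47. Nfkbia was called in 5 of 6 alternatives, all but that without Setd1a+/- replicate 2 (FDR 0.999), and Meg3 in 4 of 6, lost without either Setd1a+/- library (FDR 0.449 and 0.475). Chosen for their values, these genes are given as values alone.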

How the results depend on the processing

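No gene was called with RLE scaling, library size alone, DESeq2, at least 20 UMIs in every library, without mural-, fibroblast- or macrophage-dominant cells, in cells of at least 1500 UMIs, without mitochondrial and ribosomal genes, or, an alternative added after seeing the data, without red blood cell genes. With no filter beyond 1 UMI 7 genes were called, with the replicate block 16, and leaving out 1 library gave 1 to 42, the highest without Setd1a+/- replicate 2. In fits with 1 library in a genotype, that library is assumed to vary like the others. The 154 genes at an unadjusted p below 0.05 became 23 with DESeq2, 306 with no filter, 75 with at least 20 UMIs, 545 with the block, and 154 to 635 without 1 library. The genes whose effect differed numbered 0 with at least 20 UMIs against excitatory neurons and 4 to 17 without 1 library; against oligodendrocytes 0 to 16 without 1 library; and against striatal endothelial cells 1 with the replicate block within tissue and 0 to 1 without 1 library.

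Without 1 library the endothelial share differed by -6.32 to 7.10 points, the mural-dominant share by -4.93 to 8.10 points, the arterial-leading share by 4.96 to 7.18 points, and the log2 fold change of Setd1a was -0.61 to 0.56. Leaving out 1 library mixes the replicates unevenly, which moves a share that follows the replicate. Many of the 58 genes followed through the alternatives were chosen for small p or for their values, which favours keeping the sign. Of all 58, 50 kept their sign in every alternative run. Besides Setd1a, the others ran from -0.043 to 0.15 (Ly6c1), -0.20 to 0.27 (Slco1a4), -0.36 to 0.043 (Flt1), -0.89 to 0.37 (Fer), -0.18 to 0.39 (Lamb2) and -5.78 to 1.87 (Wfdc17) without 1 library, where Lamb1 ran from -1.0 to 0.43, and Slco1a4 was -0.0071 with library size alone and -0.0034 with at least 20 UMIs. The cause of these changes was not tested. Depth limits genes such as Setd1a and Erg, with 6 to 17 and 1 to 84 UMIs per library.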
